A study of Mus musculus with 13 samples.

Results

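Among the binding sites of the glucocorticoid receptor (GR, encoded by Nr3c1) that the authors listed as present in wild-type cells only, 8096 lay inside a gene and more than 1000 bp from its start. These wild-type-specific gene-body peaks were 42.7% of the 18953 wild-type-specific peaks and were drawn from 24673 peaks in the 3 lists of cells given dexamethasone with lipopolysaccharide. They were chosen by the position term and the distance to the gene that the authors' annotation gives for each peak. Another 919 wild-type-specific peaks inside genes lay at or under that distance, 9510 lay upstream or downstream of a gene, and 428 overlapped a gene's start or end or spanned a whole gene. The members nearest to the limit were at Ppp1r3b (1003 bp), Pradc1 (1006 bp) and Bach1 (1014 bp), and the nearest peaks left out were at Nudt1 (998 bp), Srxn1 (996 bp) and Nid1 (994 bp).

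The receptor was mapped by chromatin immunoprecipitation and sequencing in primary mouse embryonic fibroblasts, grown for 7 days from male C57BL/6 embryos of embryonic day 13.5 whose head and internal organs had been taken off. The question was which binding needs an intact DNA-binding domain. All cells were given 1 µM dexamethasone (Dex, a synthetic glucocorticoid) in ethanol for 16 h, so no group was free of ligand. With lipopolysaccharide (LPS, a bacterial product that sets off inflammatory signalling) for 3 h, at 100 ng/µl as the labels write it, there were 4 libraries of mutant cells labelled GR Zn/Zn, 2 of GR knockout cells and 3 of wild-type cells. With Dex alone there were 2 mutant and 2 wild-type libraries. The file names write the mutant allele as C437G.

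GR is a nuclear receptor that enters the nucleus when it binds a glucocorticoid. Its zinc fingers contact DNA, where a receptor dimer reads an inverted repeat known as the glucocorticoid response element, and it also occurs on chromatin beside other factors such as AP-1 (Fos and Jun proteins) and NF-kB. Receptor sites often lie far from promoters, in introns and between genes, and an intronic site can act as an enhancer of its own gene or of another.

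The deposited Dex+LPS lists gave positions alone, without counts, heights or scores. Every peak was 200 bp wide, and the lists came from libraries merged by genotype after removal of peaks found in knockout cells, per the file names. The members therefore carry no replicate spread, the depth behind them is unknown, and their absence from the mutant list is the authors' call rather than a measured difference. Whether a member lies in an exon or an intron was not analysed here. Peak positions give no expression, so the cells could not be checked by marker levels. Genes used as fibroblast markers held members in 5 of 10 cases (Prrx1, Pdgfrb, Col3a1, Col1a1 and Col1a2), at 3.32 members per 100 kb of gene body, beside 15.8% and 0.71 per 100 kb over all protein-coding genes. The same count was 5 of 10 for endothelial markers (Vwf, Pecam1, Cdh5, Flt1 and Erg), at 0.644 per 100 kb, 1 of 10 each for macrophage (Spi1) and neuronal markers (Syt1), and 0 of 10 each for epithelial and skeletal muscle markers. The median gene was 37 kb long for fibroblast, 75.5 kb for endothelial, 29.5 kb for macrophage and 46.4 kb for neuronal markers. It was 9.54 kb for epithelial and 9.39 kb for skeletal muscle markers. Of all protein-coding genes up to 10 kb, 2.02% had a member. Fibroblast markers held gene-body peaks of the list shared by both genotypes in 4 of 10 cases, beside 3.98% of all protein-coding genes. They held mutant-specific ones in 5 of 10, beside 2.25%.

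Sequence could be read for a small set only. RefSeq windows of 250 bp before to 50 bp after transcript starts (build GRCm38.p6) wholly contained 29 of the 7816 members that could be searched, 17 at a further start of the gene the peak was assigned to and 12 at the start of another gene. The palindromic GR element was searched by its consensus, an inverted repeat with any 3 bases between its arms, a single arm as AGAACA, and the AP-1 site as TGANTCA, on both strands. Such an arm can form part of an element. Both members with a GR element are shown first because they carry the sequence that the zinc fingers are known to read. One lay at a start of the long noncoding RNA Mir100hg and the other at the start of Gm13415 in a region assigned to Pax8. Sequences run 5′ to 3′ on the strand of the named transcript, stop before its start, and have the GR element, single arm and AP-1 site in capitals.
Mir100hg, chr9:41474646-41474845, plus strand: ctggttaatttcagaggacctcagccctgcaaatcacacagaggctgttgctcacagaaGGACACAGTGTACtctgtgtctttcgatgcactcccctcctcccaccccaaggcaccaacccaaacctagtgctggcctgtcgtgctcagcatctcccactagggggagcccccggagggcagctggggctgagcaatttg
Gm13415, chr2:24440172-24440371, plus strand: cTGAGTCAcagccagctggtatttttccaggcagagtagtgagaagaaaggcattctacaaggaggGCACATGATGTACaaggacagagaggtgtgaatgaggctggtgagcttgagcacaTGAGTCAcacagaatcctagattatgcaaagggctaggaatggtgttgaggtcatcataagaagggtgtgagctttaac

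In the Mir100hg peak the only capitals are the GR element, whereas the Gm13415 peak has the element between 2 AP-1 sites. The next set shows how an AP-1 site, a single arm or both appear in members without the palindrome. The genes are Sema6b (a semaphorin), Myo1c (an unconventional myosin), Pacsin2 (a membrane-curving adaptor), Hrh1 (the histamine H1 receptor), Tbcel (a tubulin-binding protein) and Brd3 (a bromodomain protein).
Sema6b, chr17:56133853-56134023, minus strand: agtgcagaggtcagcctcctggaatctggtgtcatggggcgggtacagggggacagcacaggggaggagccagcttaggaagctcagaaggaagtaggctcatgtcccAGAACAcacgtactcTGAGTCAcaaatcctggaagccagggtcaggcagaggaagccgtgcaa
Myo1c, chr11:75655809-75656008, plus strand: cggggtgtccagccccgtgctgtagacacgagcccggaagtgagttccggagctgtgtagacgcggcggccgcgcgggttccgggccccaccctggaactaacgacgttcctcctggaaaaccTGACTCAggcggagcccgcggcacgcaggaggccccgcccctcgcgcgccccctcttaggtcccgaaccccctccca
Pacsin2, chr15:83447895-83448094, minus strand: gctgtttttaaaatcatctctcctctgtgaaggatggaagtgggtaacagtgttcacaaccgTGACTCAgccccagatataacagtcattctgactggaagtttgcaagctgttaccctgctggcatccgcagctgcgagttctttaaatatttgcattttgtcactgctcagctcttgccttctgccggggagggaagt
Hrh1, chr6:114458274-114458473, plus strand: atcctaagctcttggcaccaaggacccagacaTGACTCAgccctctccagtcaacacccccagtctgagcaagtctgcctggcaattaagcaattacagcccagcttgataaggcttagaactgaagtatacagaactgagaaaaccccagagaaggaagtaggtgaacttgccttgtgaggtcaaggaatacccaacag
Tbcel, chr9:42461450-42461649, minus strand: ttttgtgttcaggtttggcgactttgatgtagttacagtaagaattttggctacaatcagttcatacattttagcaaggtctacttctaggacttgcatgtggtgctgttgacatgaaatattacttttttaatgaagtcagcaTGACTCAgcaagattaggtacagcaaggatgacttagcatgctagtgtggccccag
Brd3, chr2:27475432-27475631, minus strand: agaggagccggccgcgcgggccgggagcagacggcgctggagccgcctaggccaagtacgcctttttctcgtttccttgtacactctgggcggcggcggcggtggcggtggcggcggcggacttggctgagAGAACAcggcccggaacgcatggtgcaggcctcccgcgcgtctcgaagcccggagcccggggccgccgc

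The Sema6b peak has both a single arm and an AP-1 site, the Brd3 peak has a single arm alone, and the other 4 have an AP-1 site alone. Of the 29 members, 2 (6.9%) held the GR element, against 0.271% of the central 200 bp of 32851 RefSeq windows. An AP-1 site was present in 8 (27.6%), against 5.48% of windows, and a single arm in 4 (13.8%), against 12.9%. The other motifs, all searched on both strands, were CEBP (TTGCNNAA) in 5 (17.2%, against 7.47% of windows), RUNX (TGTGGT) in 5 (17.2%, against 11.2%), TEAD (GGAATG) in 4 (13.8%, against 10.1%) and the NF-kB motif in 1 (3.45%, against 1.04%). In 19 of the 29, the part before the start had no GR element, single arm or AP-1 site in these letters. These 29 were the members that a promoter window happened to cover, so the shares say nothing of the 8096, and no test was made.

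The members were spread over 3757 genes, most of which held a single one. Exactly 1 member was found in 2126 genes (56.6%) and 2 in 749. At the other end, 338 genes held 5 or more, 64 held 10 or more, and the 338 together carried 2643 members (32.6%). The gene identifiers of 8090 members (99.9%) matched the RefSeq gene table, 7462 members (92.2%) were assigned to protein-coding genes, and 7733 (95.5%) lay within the RefSeq body of the gene they were assigned to. Mir3084-1, whose span in the list is far wider than in RefSeq, gave 122 of the 363 that did not. A member overlapped a protein-coding body in 7410 cases (91.5%), as did 561 of the 9510 wild-type-specific peaks annotated outside genes (5.9%).

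Of 21887 protein-coding genes, 15.8% had at least 1 member and 1.48% had at least 5. Longer genes had one more often, and the number per length was highest from 100 to 300 kb and lowest over 300 kb. The share of genes with a member was 2.02% up to 10 kb, 9.47% from 10 to 30 kb, 25.3% from 30 to 100 kb, 53.2% from 100 to 300 kb and 72.9% over 300 kb. The number per 100 kb of gene body was 0.669, 0.657, 0.786, 0.864 and 0.523 in the same order, and 0.71 over all genes. The rule leaves out peaks in the first 1000 bp of each gene, while the rate divides by the whole length. That stretch is a larger part of a short gene, so shares and rates of short genes are lowered more by the rule. How far this shapes the order of the length classes was not tested. Counts in single genes are given below with the rate per 100 kb of the span in the peak list. Chromosome X held 47 members, 44 of them assigned to protein-coding genes. These gave 0.0956 per 100 kb of such genes, under the range of 0.626 (chromosome 5) to 0.93 (chromosome 10) over the autosomes.

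**Figure D1:**
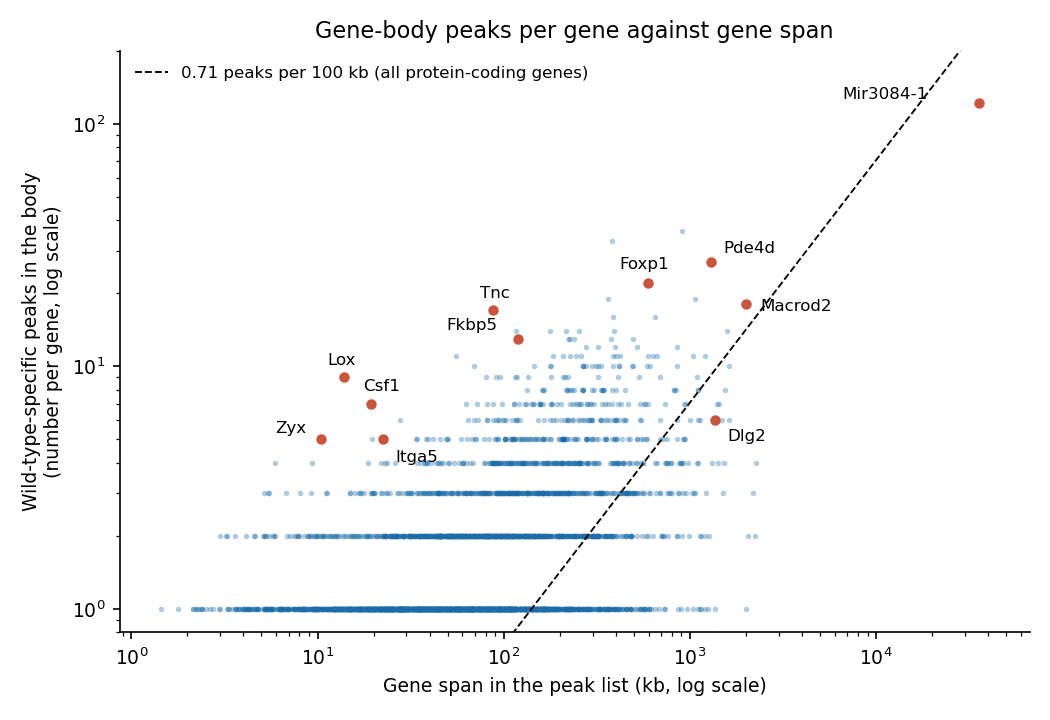
Number of wild-type-specific gene-body peaks (log scale) against the gene's span in the peak list in kb (log scale), 1 point per gene. Labelled genes are in red. The dashed line is the rate over all protein-coding genes (0.71 per 100 kb of RefSeq length). Lox, Zyx, Csf1, Itga5 and Tnc hold 5 to 17 peaks in 10.4 to 87.2 kb, far above the line, while Macrod2 (18 peaks) lies close to it and Dlg2 (6 peaks) under it.

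Some of the largest counts came from loci that differ between the list and RefSeq. Mir3084-1 collected 122 members over a listed span of 35832 kb, none of them in its RefSeq body. Gm21119 had 36 and Zfp982 had 33, of which 3 and 4 were in the RefSeq body, and Zfp982 belongs to a zinc finger family with many similar copies, among which reads can be split. Setting these apart, the phosphodiesterase gene Pde4d, which breaks down cyclic AMP, had 27 members in 1302 kb. The repressor gene Foxp1 and the adhesion gene Lpp followed with 22 each in 596 and 599 kb. Rbms3 (an RNA-binding protein) had 19 in 1057 kb, 2010111I01Rik had 19 in 361 kb, Macrod2 had 18 in 1995 kb, and Dlc1 (a GTPase-activating protein) and Rarb (a retinoic acid receptor) had 16 each. Per length these genes ranged from 0.902 per 100 kb at Macrod2 to 5.26 at 2010111I01Rik. Pde4d, Rbms3 and Macrod2 are among 46 genes listed with a span over 1 Mb, which held 377 members in all.

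Among genes with 5 or more members, the 10 with most per 100 kb had 14.5 to 65.2. Lox, the lysyl oxidase that cross-links collagen and elastin, held 9 members in 13.8 kb, or 65.2 per 100 kb. Zyx (zyxin, a protein of focal adhesions and actin fibres; chr6:42349828-42360213) held 5 in 10.4 kb, or 48.1 per 100 kb. Csf1 (the macrophage growth factor M-CSF; chr3:107741048-107760469) held 7 at 36 per 100 kb, Carmn (a long noncoding RNA) 5 at 25.4 and Itga5 (a subunit of the fibronectin receptor; chr15:103344286-103366791) 5 at 22.2. Tnc, the gene of the matrix protein tenascin-C (chr4:63959785-64047015), held 17 in 87.2 kb, or 19.5 per 100 kb. Bach1, a repressor of haem and oxidant response genes, held 5 at 14.5. The other 3 were 1700095A21Rik (6 at 21.6), Gm21190 (11 at 19.9, none in its RefSeq body) and Zfp980 (5 at 14.8), the last from the same kind of zinc finger family as Zfp982.

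Positions are described for some of these genes, with and without peaks of the other classes. Peaks of the other classes were counted only more than 1000 bp inside the gene. Their gene-body lists are shorter, with 1327 shared and 843 mutant-specific peaks beside 8096 members. Of the 338 genes with 5 or more members, 137 had neither other class, so members alone are common among such genes. At Lox the 9 members lay from 4.81 to 12.5 kb after the start, with no shared and no mutant-specific peak so counted. Zyx had its 5 at 1.65, 4.45, 5.04, 7.17 and 9.93 kb, and Itga5 its 5 at 2.65, 5.34, 6.25, 6.76 and 9.34 kb, again with neither other class. In Tnc, by contrast, the 17 members stood among 6 shared and 9 mutant-specific peaks of the same gene. Csf1 likewise had 7 members from 5.05 to 13.4 kb together with 5 shared and 3 mutant-specific peaks. The class of a site therefore varied between neighbouring sites of 1 gene in Tnc and Csf1.

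**Figure D2:**
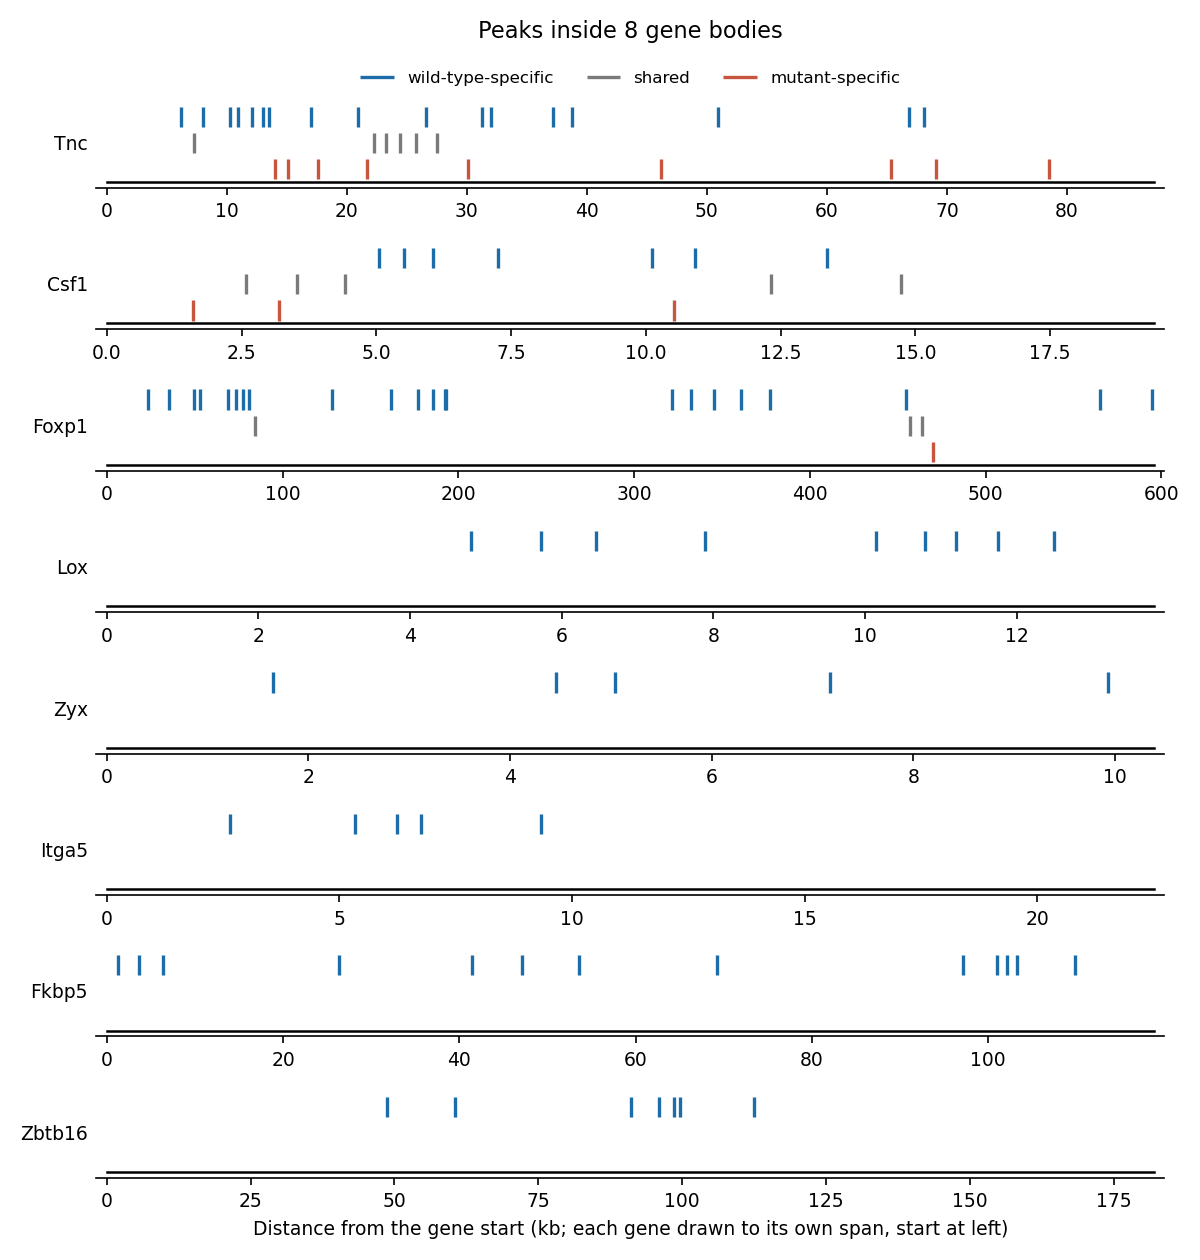
Positions of peaks of the wild-type-specific (upper ticks), shared (middle ticks) and mutant-specific (lower ticks) lists inside 8 genes, against the distance from the gene start in kb, with each gene drawn to its own span. Only peaks more than 1000 bp from the start are drawn. Among these, Tnc has 17, 6 and 9 peaks of the 3 classes, Csf1 has 7, 5 and 3, Foxp1 has 22, 3 and 1, and Lox, Zyx, Itga5, Fkbp5 and Zbtb16 have wild-type-specific peaks alone.

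Genes with a member held gene-body peaks of the other classes more often than all protein-coding genes did, although most held none. Of the 3456 protein-coding genes with a member, 18.5% had a shared and 8.36% a mutant-specific gene-body peak, against 3.98% and 2.25% of all 21887. Among genes of 100 to 300 kb the shares were 24.8% and 9.25% with a member, against 15.7% and 6.09% of all. These shares are a description, with no test. Of the 3757 genes of every type, 2911 (77.5%) had no peak of the shared or mutant-specific lists more than 1000 bp inside, 689 (18.3%) had a shared one, 306 (8.14%) a mutant-specific one and 149 both. Read the other way, 72.2% of the 954 genes with a shared gene-body peak and 57.3% of the 534 with a mutant-specific one also held a member. Of the 338 genes with 5 or more members, 175 had a shared peak, 87 had a mutant-specific one, and 137 had neither. The nearest shared peak was under 1 kb away for 119 members (1.47%) and the nearest mutant-specific peak for 91, with medians of 155 and 448 kb, and 1 member overlapped a mutant-specific peak. Over 4339 pairs of neighbouring members in 1 gene, the median spacing was 15.2 kb, 294 pairs (6.78%) were under 1 kb apart, and the closest were 314 bp apart.

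Members were spread along the gene beyond the distance limit of the rule. That limit left out the 919 wild-type-specific peaks inside genes that lay nearest the start, beside 824 members at 1 to 5 kb. Whether these peaks prefer the start can therefore not be judged from the members. Their median distance from it was 47.3 kb (quartiles 15.6 and 130 kb), 10.2% lay 1 to 5 kb away and 31.3% over 100 kb away. Shared gene-body peaks (n = 1327) had a median of 47 kb and 12.4% at 1 to 5 kb, and mutant-specific ones (n = 843) a median of 17.9 kb and 25.3%. The first 50% of the gene's span held 54.6% of members (exact binomial 95% interval 53.5 to 55.7%), against 52.8% of shared (50 to 55.5%) and 56.5% of mutant-specific peaks (53 to 59.8%). Such intervals, here and below, cover counting error only. With members over 5000 bp from the start alone, this share was 50.6%. Distance was part of the rule, so these values are a description.

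**Figure D3:**
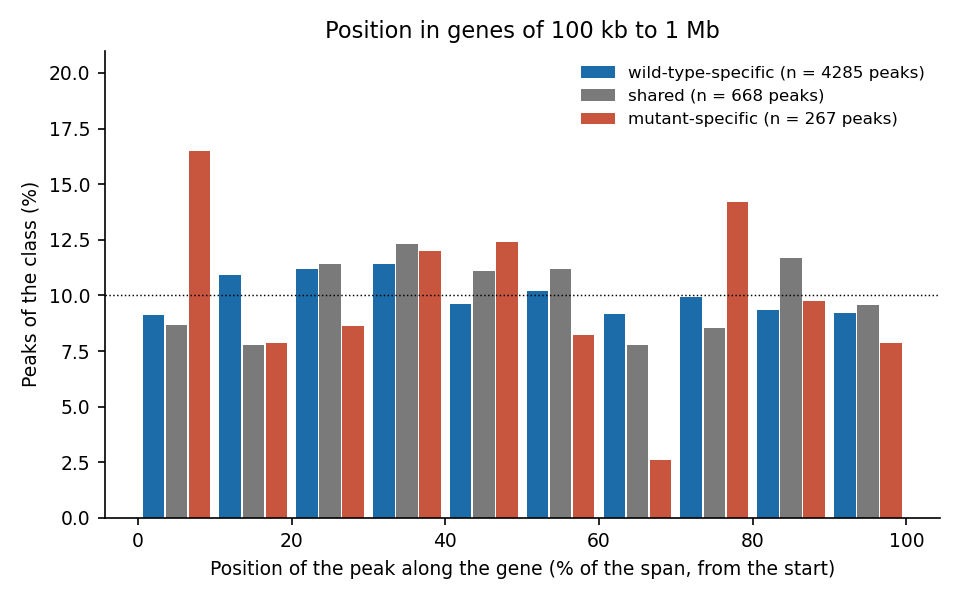
Share of gene-body peaks (%) in each step of 10% of the gene's span, from the start at the left. Peaks are of the wild-type-specific, the shared and the mutant-specific list in genes over 100 kb and up to 1 Mb. There the limit at 1000 bp takes little of the length of the first step, and the peaks it removes were not counted. The dotted line marks 10%. Wild-type-specific peaks vary between 9.12% and 11.4% per step (n = 4285), and the other classes rest on 668 and 267 peaks.

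The list gives each peak's distance to 1 gene start, and some members lay close to another RefSeq start. Such a start can itself lie close to the listed one. At Dag1 the centre of the member was 1076 bp from the listed start and 934 bp from the RefSeq start. How many starts were of this kind was not counted. Starts on chromosome 18 were not used here. Of the other members, 277 of 7816 had their centre within 1 kb of a start (3.54%, 95% interval 3.15 to 3.98%), beside 3.92% over gene-body peaks of all 3 lists. The share was 64 of 1293 (4.95%, 3.83 to 6.28%) for shared peaks and 48 of 820 (5.85%, 4.35 to 7.69%) for mutant-specific peaks. It was lower in members than in shared peaks (Fisher's exact test across peaks, two-sided, adjusted p = 0.0348 over 4 tests) and than in mutant-specific peaks (adjusted p = 0.00756). For starts of the assigned gene alone the shares were 2.14%, 3.48% and 4.15%. These tests compare regions and not samples, and the comparison was chosen after the data had been seen. By the same Fisher's exact test it did not pass for peaks over 5000 bp from the listed start (2.92%, against 3.98% of shared, adjusted p = 0.125, and 4.57% of mutant-specific peaks, adjusted p = 0.0547), nor with a limit of 500 bp (2.41%, against 3.25%, adjusted p = 0.168, and 3.41%, adjusted p = 0.197).

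**Figure D4:**
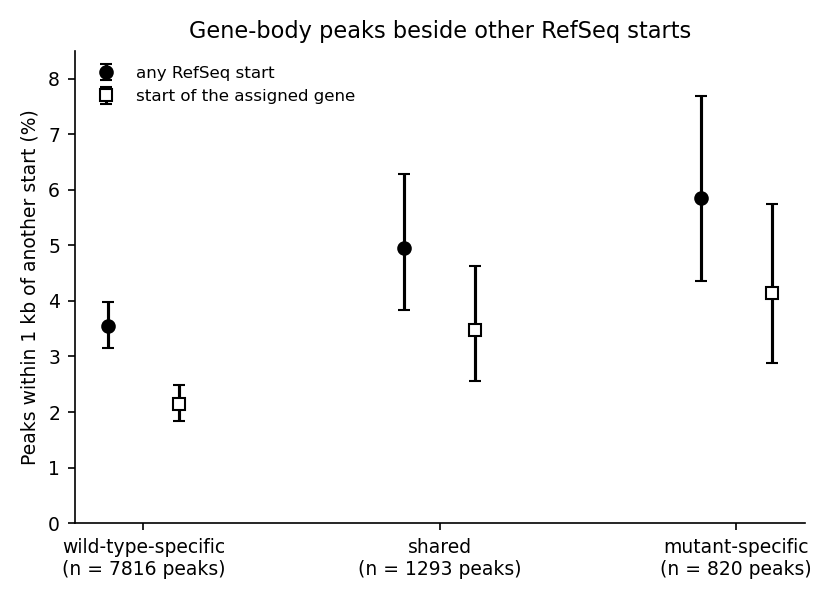
Share of gene-body peaks (%) with their centre within 1 kb of a RefSeq transcript start, for peaks of the wild-type-specific, the shared and the mutant-specific list. Filled circles are for all starts and open squares for starts of the assigned gene. Some of these starts lie close to the listed one. Bars are exact binomial 95% intervals over peaks. Wild-type-specific peaks are lowest on both counts, at 3.54% and 2.14%.

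Sgk1, a kinase gene that glucocorticoids are known to induce, shows what this means for a single gene. Its listed body (chr10:21882184-21999903) is 118 kb long, and its 6 members lay 91.7, 94.4, 110, 114, 115 and 116 kb after the listed start. RefSeq places another Sgk1 start at chr10:21992223, and the centre of the member at 110 kb was 184 bp before it. The Tsc22d3 member at 57.3 kb was 551 bp before a further start of that gene, which encodes the glucocorticoid-induced leucine zipper. At Runx1, the member at 129 kb was 558 bp after one. Hk1 (a hexokinase; 63 bp before a start), Gpx4 (a glutathione peroxidase; 134 bp before) and Abl1 (a tyrosine kinase; 36 bp after), named after their values were seen, show the same.

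Known GR target genes held members at several times the overall rate. Of 40 listed targets, 18 (45%) had at least 1, beside 15.8% of all protein-coding genes, with 57 members in all and 3.89 per 100 kb of gene body, beside 0.71. The median target is 19.5 kb long, and the median target had 0 per 100 kb, as did the median gene overall. Fkbp5, a co-chaperone that lowers GR's affinity for hormone (chr17:28398753-28517524), had 13, spread from 1.32 to 110 kb after the listed start, with 9 of them in the RefSeq body. Zbtb16 (the transcription factor PLZF; chr9:48654297-48836222) had 7 between 48.7 and 112 kb. Neither had a shared or mutant-specific peak more than 1000 bp inside.

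Of the other targets, Sgk1 had 6, Bcl6 (a transcriptional repressor) 4 within 2.21 to 5.73 kb of the start, and Pik3r1 (a regulatory subunit of PI 3-kinase) 4 within 46.2 to 55.2 kb. Foxo3 (a forkhead factor), Timp3 (an inhibitor of metalloproteinases) and Errfi1 (an inhibitor of the EGF receptor) had 3 each. Errfi1 also had 4 mutant-specific peaks. Per2 of the circadian clock, Tsc22d3, Hif3a (a hypoxia-inducible factor) and Nfkbia (the NF-kB inhibitor IkB alpha) had 2 each. The 2 at Nfkbia were 1.62 and 2.4 kb into a gene of 3.24 kb. Klf9 and Klf15 (Krüppel-like factors), Glul (glutamine synthetase), Map3k6 (a kinase), Cables1 and Tiparp (an ADP-ribosyltransferase) had 1 each. Over the list, 6 genes (15%) had shared gene-body peaks and 5 (12.5%) had mutant-specific ones, beside 3.98% and 2.25% of all protein-coding genes.

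Genes of the NF-kB pathway, which LPS activates and glucocorticoids restrain, had members in 17 of 43 cases (39.5%), at 4.01 per 100 kb in genes of 11.4 kb at the median. Of all protein-coding genes of 10 to 30 kb, 9.47% had a member, at 0.657 per 100 kb. Csf1 had 7 of the 32, and Irak2 (a kinase below the interleukin-1 and Toll-like receptors) and Lif (a cytokine) had 3 each. This list also held 17 shared and 27 mutant-specific gene-body peaks. They lay in 7 (16.3%) and 8 genes (18.6%), beside 3.98% and 2.25% of all protein-coding genes. The 3 members at Lif lay 10 to 11.2 kb from the listed start, beside 4 shared peaks. With members over 5000 bp from the start alone, 10 of the 43 genes had one.

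Extracellular matrix genes had members in 23 of 35 cases (65.7%), with 99 members at 3.42 per 100 kb and a median gene length of 72.6 kb. Of all protein-coding genes of 30 to 100 kb, 25.3% had a member, at 0.786 per 100 kb. After Tnc, the highest counts were 11 at Ltbp1 (which holds latent TGF-beta in the matrix) and 9 each at Col4a1 (a basement membrane collagen) and Lox. Shared gene-body peaks occurred in 15 of these genes (42.9%) and mutant-specific ones in 9 (25.7%), beside 3.98% and 2.25% of all protein-coding genes. Focal adhesion and actin genes had members in 36 of 46 cases (78.3%), with 207 members at 2.6 per 100 kb. Of these 46 genes, 17 (37%) had a shared and 13 (28.3%) a mutant-specific gene-body peak. Their median gene is 108 kb long and held 3.24 per 100 kb, beside a median of 0 over all genes. Lpp had 22, Dlc1 16, and Cald1 (caldesmon, which binds actin) and Palld (palladin, an actin scaffold) 14 each. Over all protein-coding genes of 100 to 300 kb, 53.2% had a member, at 0.864 per 100 kb.

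Transcription factor genes of fibroblasts had members in 29 of 41 cases (70.7%) at 1.87 per 100 kb, led by Foxp1 (22), Runx1 (13) and Glis3 (11). Their median length is 129 kb, and 53.2% of all protein-coding genes of 100 to 300 kb had a member, at 0.864 per 100 kb. A shared gene-body peak was found in 39% of these factor genes and a mutant-specific one in 14.6%. Genes of TGF-beta and BMP signalling, of 68.5 kb at the median, had members in 14 of 31 (45.2%) at 1.75 per 100 kb. All protein-coding genes of 30 to 100 kb had members in 25.3% of cases, at 0.786 per 100 kb. In the TGF-beta and BMP list, Tgfbr3 (the co-receptor betaglycan) and Bmpr1b (a BMP receptor) had 6 each and Bmp1 (a procollagen protease) had 5. A mutant-specific gene-body peak was found in 0 of the 31, beside 2.25% of all protein-coding genes, and a shared one in 6 (19.4%), beside 3.98%. At so low an overall share a list of this size can readily hold none, and the 18 clock genes also had 0. Cyclic nucleotide genes had members in 20 of 30 (66.7%) at 1.14 per 100 kb, with 27 at Pde4d, 11 at Prkg1 (cyclic GMP-dependent kinase) and 8 at Akap13 (an anchoring protein of protein kinase A). Their median length is 126 kb, and 23.3% had a shared and 13.3% a mutant-specific gene-body peak.

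The 5 remaining pathway and gene-length lists had rates of 1.13 per 100 kb or less, beside 0.71 and a share of 15.8% over all protein-coding genes. The median gene is 32.7 kb long for clock, 84.5 kb for insulin and FoxO and 109 kb for coregulator genes. It is 688 and 1140 kb for the 2 lists of very long genes. Of all protein-coding genes, 25.3% had a member from 30 to 100 kb, 53.2% from 100 to 300 kb and 72.9% over 300 kb. Some genes, such as Foxp1 and Lpp, stand in more than 1 list. Clock genes had members in 8 of 18 (44.4%) at 1.13 per 100 kb, with 7 at the nuclear receptor Rora and 2 each at Per2, Nr1d1 (REV-ERB alpha) and Npas2. Insulin and FoxO signalling genes had members in 11 of 30 (36.7%) at 1.01 per 100 kb, led by Igf1r, Igfbp7 and Rptor (5 each). Coregulators of nuclear receptors had members in 11 of 25 (44%) at 0.484 per 100 kb, with 4 at Hdac9 and 2 at each of 5 genes, Hdac4 among them. Very long genes that many tissues express had members in 20 of 25 (80%) at 0.697 per 100 kb. Very long neuronal genes had members in 19 of 25 (76%) at 0.172 per 100 kb, and Nrxn3, Opcml and Dlg2 had 6 each over spans of 1612, 1134 and 1358 kb. A high share of genes with a member thus came with a low rate in very long neuronal genes.

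**Figure D5:**
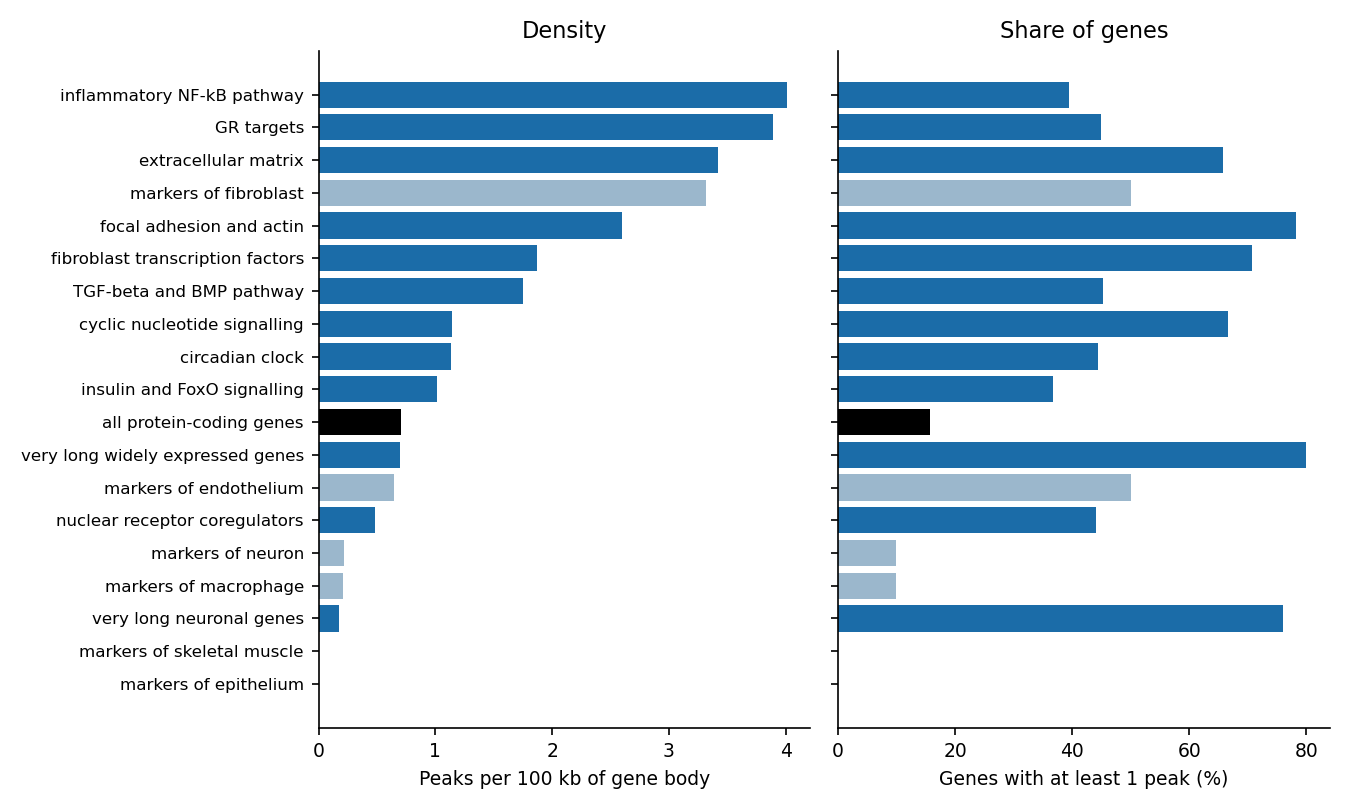
Wild-type-specific gene-body peaks per 100 kb of gene body (left) and share of genes with at least 1 (right, %) for 12 gene lists (dark blue), 6 lists of cell type markers (light blue) and all protein-coding genes (black). The NF-kB pathway (4.01), GR targets (3.89) and extracellular matrix genes (3.42) have the highest rates per 100 kb, and very long neuronal genes combine a share of 76% with a rate of 0.172.

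The Dex libraries, which the choice of members did not use, had 1 peak list each and are the only replicated values. Peaks of the mutant libraries, 53 and 60 in number, overlapped 0 and 1 of the 8096 members (0 and 0.0124%), beside 0 and 0.00528% of all wild-type-specific peaks, where a count of 0 allows up to 0.0371% (3 counts; the exact 95% interval reaches 0.0456%). Peaks of the wild-type libraries, 412 and 854 in number, overlapped 21 members (0.259%, 95% interval 0.161 to 0.396%) and 36 members (0.445%, 0.312 to 0.615%), beside 0.306% and 0.485% of all wild-type-specific peaks. Both mutant libraries lay below both wild-type libraries. The same order held at shared gene-body peaks, with 0 and 0.0754% overlapped by mutant and 0.754% and 2.03% by wild-type libraries, which was not tested. For members, the mean was 0.00618 ± 0.00873% in mutant and 0.352 ± 0.131% in wild-type libraries (SD, n = 2 each). This gave a difference of -0.346 percentage points with p = 0.33 (exact permutation test, two-sided), the smallest p that 2 against 2 libraries allow. The difference was -0.124 with Dex peaks of at least 300 bp and -0.203 without chromosomes 10 to 14. The mutant lists were also shorter, and 0 and 1.67% of their peaks lay on a member, against 5.1% and 4.1% of the wild-type peaks. How far the number of peaks accounts for the difference was not tested. The p-value reflects only that the mutant libraries all lay below the wild-type ones, whatever the size of the difference. The labels do not say whether the Dex libraries are separate cultures, so the spread between them may be technical.

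In wild-type cells under Dex alone, recurrence of the members was not distinguishable from that of wild-type-specific peaks outside genes. The shares of 0.259% and 0.445% stood beside 36 (0.379%) and 56 (0.589%) of the 9510 peaks outside genes. Neither difference passed (Fisher's exact test across peaks, two-sided, adjusted p = 0.208 for both libraries). Shared gene-body peaks were overlapped in 0.754% and 2.03% of cases by the same wild-type libraries, which was not tested. Chromosomes 10 to 14, which hold 27.1% of members, carried 26.4% and 31.7% of the peaks of the mutant Dex libraries, against 68.2% and 73.9% of those of the wild-type Dex libraries. Without those chromosomes the order turned round, with 0.22% of members against 0.161% of outside peaks in library 1 (Fisher's exact test, adjusted p = 0.533) and 0.203% against 0.161% in library 2 (adjusted p = 0.672).

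In all, 49 members in 45 genes were overlapped by a peak of either wild-type Dex library, 30 of them on chromosomes 10 to 14. They included members of 3 GR targets, namely Per2 at 22.8 kb and Fkbp5 at 97.2 kb in library 1 alone, and Zbtb16 at 98.6 kb in both. The 8 found in both libraries were 2 in Dnm3 (a dynamin, at 155 and 342 kb), and 1 each in Zbtb16, Klf13 (a Krüppel-like factor, at 41.8 kb), Zhx3 (a zinc finger and homeobox factor, at 67.6 kb), Ralgapa1 (a GTPase-activating protein, at 187 kb), Pcdh15 (a protocadherin, at 499 kb) and the span listed as Mir3084-1. Of these 8, 2 were on chromosomes 10 to 14. The Zbtb16 member lay at chr9:48737512-48737711 and the Fkbp5 member at chr17:28420268-28420467.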

How the data were processed

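GR ChIP-seq was taken as the authors deposited it, as lists of peak positions and distances in base pairs (1-based, mm10). The build mm10 and the tools MACS2 2.1.0, Picard 1.119 and BWA 0.7.13 are named, without their roles, in the submitters' processing notes. Libraries given Dex+LPS were pooled per genotype and knockout peaks taken out, per the file names. The merging and annotation methods are not given in the sources used here. Shallower or stricter lists lose peaks, so class labels can depend on depth, which is unknown. The labels call the Dex+LPS libraries biological replicates, but their merged lists give no spread.

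Overlap meant at least 1 bp. RefSeq (GRCm38.p6) gave the RefSeq bodies, gene lengths and further starts. Rates over gene lists, length classes and chromosomes divide the members assigned to the genes by RefSeq length, also where a member lies outside the RefSeq body. Rates of single genes divide by the span in the peak list, so the 2 kinds of rate differ somewhat in their base. Intervals are exact (Clopper-Pearson) at 95%. Fisher's exact tests ran across peaks, with Benjamini-Hochberg adjustment over 4 tests and a threshold of 0.05, and an exact permutation test compared the Dex libraries. Overlap code was checked against bedtools 2.31.1 on simulated intervals. Computation ran in Python 3.11.15 with scipy 1.17.1, numpy 2.4.6 and pandas 2.3.3, and plots in matplotlib 3.10.9. The members and gene lists were chosen with earlier results of these data known. Named genes were the 12 with most members, the 10 densest with at least 5, all GR targets with a member, genes recurring in both wild-type Dex libraries and the top 3 of every other list (ties by symbol, with the tied Palld added), of which a coregulator gene is not reported here. Alternatives changed the overlap, the distance limit, the chromosomes, the gene spans and the libraries. A planned motif share and exon share over all members were not run, since no genome or exon annotation was used here.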

Additional observations from a re-analysis of the deposited data

How the results depend on the processing

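Without chromosomes 10 to 14, the difference in Dex recurrence between members and wild-type-specific peaks outside genes changed sign, with 0.22% of members in library 1 and 0.203% in library 2, and stayed short of the threshold; other overlaps, distance limits and gene spans kept its direction. By Fisher's exact test, the lower share of members near another RefSeq start did not pass against shared or mutant-specific peaks within 500 bp (2.41% of members), by overlap of the RefSeq window (1.45%, adjusted p = 0.175 and 0.208) or over 5000 bp from the listed start (2.92%), and passed for own-gene starts and without chromosomes 10 to 14. These comparisons and their alternatives were chosen after the data had been seen. The share of members in the first 50% of the gene moved to 50.6% with the limit at 5000 bp. The mutant minus wild-type difference under Dex ranged from -0.438 to -0.253 when 1 library was left out, and as a replicate block of equally numbered libraries it was -0.346 (exact p = 0.50, the smallest that 2 pairs allow), where the numbers are not known to pair the samples. The causes of these changes were not tested. Protein-coding genes with a member numbered 2557 to 3498, beside 3456, and those with at least 5 numbered 225 to 302, beside 324. For the gene lists, 64 of 72 recounts stayed within 1.5 times. The other 8 fell, to 10 NF-kB genes, 3 fibroblast and 0 macrophage markers over 5000 bp from the start, and without chromosomes 10 to 14 to 7 coregulator, 4 clock, 13 cyclic nucleotide and 7 insulin genes and 0 neuronal markers. Positions alone, merged lists and unknown depth limit all counts.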
